A study of Mus musculus with 9 samples.

Results

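The RNAs described here are the 10 listed long noncoding RNAs of the mouse that host small nucleolar RNAs (snoRNAs) in their introns: Gas5, Snhg1, Snhg3, Snhg5, Snhg6, Snhg8, Snhg12, Snhg15, Zfas1 and Epb41l4aos. They were chosen by name from the 48440 genes in the count tables, all 10 were found there, and 9 passed the filter on low counts that left 20838 genes for testing. Polyadenylated RNA was sequenced from J1 mouse embryonic stem cells in which Suz12, part of the core of Polycomb repressive complex 2, carries an auxin-inducible degron (AID). All 9 libraries have this Suz12-AID genotype, Mock included, so no library comes from cells with untagged Suz12. Each group has 3 libraries, stated to be biological replicates: Mock, Auxin (auxin at 50 µM for 96 h) and Reintroduction (auxin washed out for 4.5 h). All cells grew in serum medium with leukemia inhibitory factor and 2 inhibitors, PD0325901 at 1 µM and CHIR99021 at 3 µM. What the Mock cultures received is not given in the sources used here, nor is the number of clones. The comparisons ask which RNAs differ once Suz12 is depleted and which move soon after auxin is removed.

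A snoRNA host gene is transcribed as a long precursor, whose introns carry snoRNAs that are trimmed free after splicing. Box C/D snoRNAs guide methylation of ribosomal RNA and box H/ACA snoRNAs guide the conversion of its uridines to pseudouridine, so these genes supply the assembly of ribosomes. The spliced remainder of the host usually has only short reading frames. It often begins in a 5′ terminal oligopyrimidine (TOP) tract, the start that ties the translation of ribosomal protein mRNAs to growth signals, and it is typically degraded by nonsense-mediated decay (NMD), so the level of a host RNA is set by transcription and by decay together.

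The sequences around the transcription starts are shown because the TOP tract is the feature for which this class is known, and because the members that moved together can be compared there. RefSeq (GRCm38.p6) promoter sequences matched 8 of the 10 members, with 9 starts in all, since Gas5 has 2. Each line gives 50 bases before and 50 bases after the start, 5′ to 3′ on the strand of the gene. Capitals mark the longest run of C and T that begins within 20 bases of the start, together with any TATAAA in either orientation (TTTATA on the strand shown).
Snhg1 (chr19:8723437-8723536, + strand): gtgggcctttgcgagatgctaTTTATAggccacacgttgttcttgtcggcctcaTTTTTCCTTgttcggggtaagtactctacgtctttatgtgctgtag
Zfas1 (chr2:167062884-167062983, + strand): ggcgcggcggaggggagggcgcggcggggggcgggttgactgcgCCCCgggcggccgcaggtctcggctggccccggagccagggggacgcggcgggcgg
Snhg8 (chr3:123508287-123508386, - strand): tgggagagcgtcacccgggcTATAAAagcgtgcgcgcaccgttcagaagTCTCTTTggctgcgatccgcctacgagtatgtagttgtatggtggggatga
Snhg5 (chr9:88522848-88522947, - strand): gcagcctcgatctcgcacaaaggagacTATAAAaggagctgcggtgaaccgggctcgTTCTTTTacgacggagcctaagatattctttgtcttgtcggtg
Snhg12 (chr4:132308628-132308727, + strand): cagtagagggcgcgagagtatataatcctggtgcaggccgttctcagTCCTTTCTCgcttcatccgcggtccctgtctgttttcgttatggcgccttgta
Gas5, second start (chr1:161035116-161035215, + strand): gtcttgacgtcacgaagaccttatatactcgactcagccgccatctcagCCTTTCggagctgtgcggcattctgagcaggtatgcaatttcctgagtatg

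A pyrimidine run of at least 6 bases near the start was found in 5 of the 8 members with a window (Gas5, Snhg1, Snhg5, Snhg8 and Snhg12), against 39.3% of 32817 mouse promoters. Here and below a member counted if any of its starts had the match (for this run in Gas5, only the second start), whereas the share is per promoter. With the first base at the RefSeq start as 1, the runs began at -3 (Snhg12), -1 (second Gas5 start and Snhg8), 5 (Snhg1) and 8 (Snhg5). No run began at the RefSeq start itself. For some members, Snhg8 among them, this start is not the first base of the counted gene given below. Positions are therefore not certain to the base, and this count is not one of TOP tracts. TATAAA, searched on both strands of the 300-base promoters (250 bases before the start), was present in 4 of the 8, against 13.6% of promoters. In Snhg3 it lay at base 23, after the start. The E-box CACGTG was present in 1 (Snhg15), against 7.15%, and TGATGNAA, the core of sites for ATF4, in 0, against 3.97%. Of the 3 RNAs that were highest in Auxin, described next, Snhg1 and Snhg8 have a pyrimidine run and a TATAAA in these windows, whereas the printed Zfas1 start has neither. Snhg5, which was lower in Auxin, has both as well, and Snhg12, also lower, has a pyrimidine run. A match is a description of letters and not evidence that a factor binds there.

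Snhg1, Zfas1 and Snhg8 rose in Auxin over Mock and fell again in Reintroduction. Values are normalised read counts (CPM, a gene's counts relative to the scaled total of its library). Tests are edgeR's quasi-likelihood test with Benjamini-Hochberg adjustment over all 20838 genes, and calls were made below an adjusted p of 0.05. Snhg1 (chr19:8723475-8726443, + strand, mm10, as for all members) holds 8 annotated snoRNA records, Snord22 among them. Its level was 77.7, 76.2 and 77.7 CPM in Mock, 143.0, 160.0 and 138.0 CPM in Auxin, and 67.7, 66.4 and 64.8 CPM in Reintroduction. All 3 Auxin libraries stood above all others, and the Reintroduction libraries lay below every Mock library. In bulk RNA, a change in the make-up of the cells and a change of RNA per cell cannot be told apart. The fold change of Auxin over Mock was 1.91 (log2 0.93 ± 0.060, SE, adjusted p = 9.3e-08). Reintroduction was lower than Auxin by a log2 change of -1.15 ± 0.061 (SE, edgeR, adjusted p = 8.42e-08) and lower than Mock by -0.22 ± 0.060 (SE, edgeR, adjusted p = 0.00694). The last difference was not called on total counts without scaling factors, where it was -0.09.

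Zfas1 (chr2:167062934-167065862, + strand), which holds 3 annotated snoRNAs, Snord12 among them, showed 85.6, 81.0 and 84.0 CPM in Mock. In Auxin it reached 138.0, 165.0 and 137.0 CPM, and in Reintroduction it was at 63.6, 58.5 and 59.6 CPM. The 3 groups did not overlap, with Auxin highest and Reintroduction lowest. Auxin exceeded Mock 1.76-fold (log2 0.81 ± 0.074, SE, edgeR, adjusted p = 1.58e-06). From Auxin to Reintroduction the log2 change was -1.27 ± 0.075 (SE, edgeR, adjusted p = 2.02e-07), the most negative of any member, and from Mock to Reintroduction it was -0.46 ± 0.074 (SE, edgeR, adjusted p = 0.000208).

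Snhg8 (chr3:123507552-123508404, - strand), host of the H/ACA snoRNA Snora24, gave 28.6, 23.3 and 23.4 CPM in Mock, 39.0, 45.4 and 42.9 CPM in Auxin and 29.9, 28.2 and 28.5 CPM in Reintroduction. The Auxin libraries were above all 6 others, while Mock and Reintroduction overlapped. Snhg8 was 1.69-fold higher in Auxin than in Mock (log2 0.76 ± 0.087, SE, edgeR, adjusted p = 1.08e-05) and lower in Reintroduction than in Auxin (log2 -0.55 ± 0.087, SE, edgeR, adjusted p = 0.000301). Reintroduction against Mock gave 0.20 ± 0.087 (SE, edgeR, adjusted p = 0.0589). That difference was called without Mock replicate 1 (0.28), the library with the highest Mock value. It was also called on total counts (0.34), after removal of a trend with gene length (0.54) or with length and GC content (0.45), with a filter of 1 CPM (0.22), and in a fit of those groups alone (0.21).

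**Figure D1:**
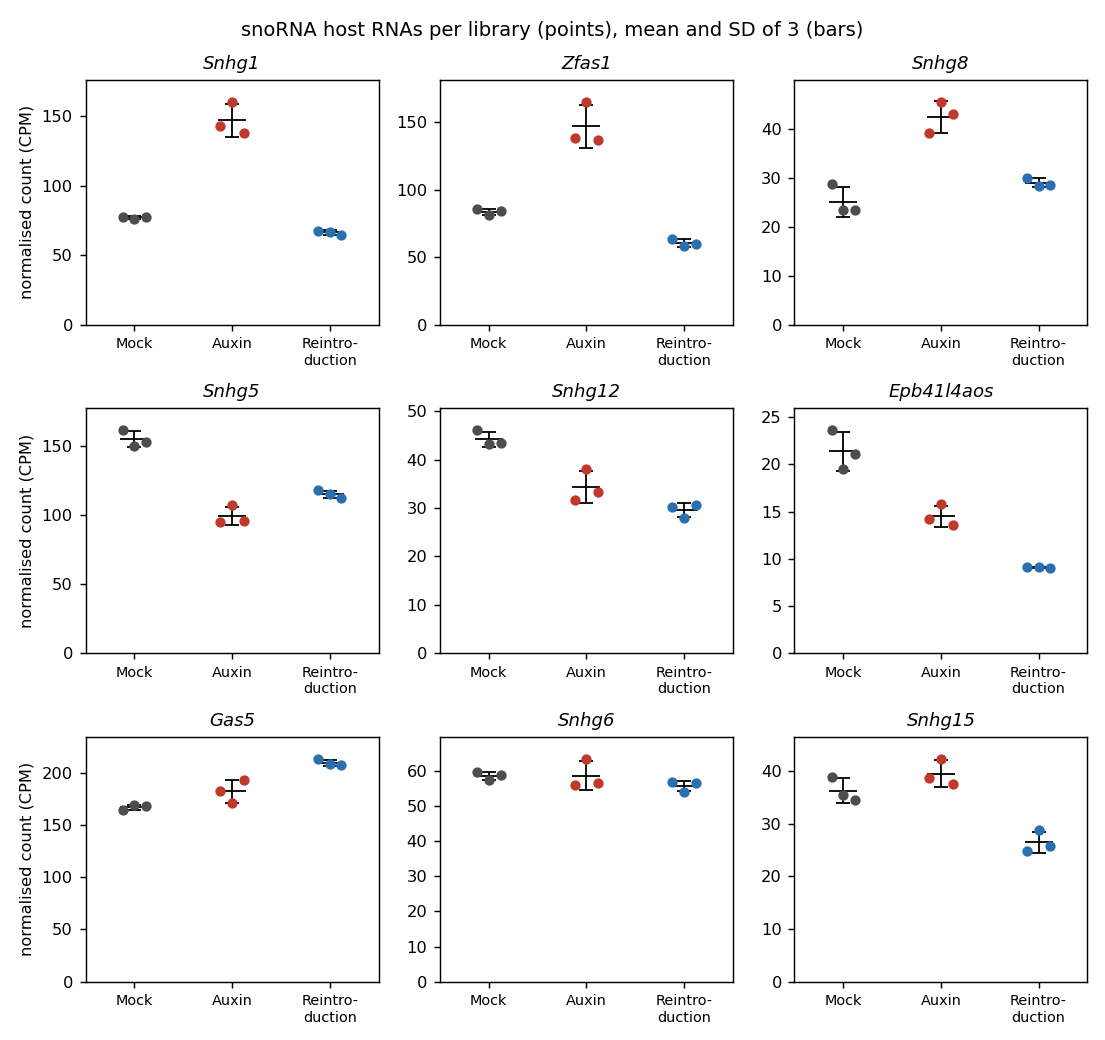
Normalised read count (CPM, linear axes from 0) of the 9 tested snoRNA host RNAs in each library of Mock, Auxin and Reintroduction, with the mean (horizontal bar) and SD of 3 libraries. Snhg1, Zfas1 and Snhg8 have their 3 highest libraries in Auxin, whereas Snhg5, Snhg12 and Epb41l4aos have theirs in Mock.

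Snhg5, Snhg12 and Epb41l4aos were lower in Auxin than in Mock. Snhg5 (chr9:88521050-88522929, - strand) hosts the nearly identical Snord50a and Snord50b. It was at 161.0, 150.0 and 153.0 CPM in Mock, at 95.1, 107.0 and 95.7 CPM in Auxin, and at 118.0, 115.0 and 112.0 CPM in Reintroduction. The groups were ordered Mock, Reintroduction, Auxin with no overlap. Auxin was at 0.641 times the Mock level (log2 -0.64 ± 0.058, SE, edgeR, adjusted p = 1.46e-06). Reintroduction was higher than Auxin by 0.21 ± 0.058 (log2, SE, edgeR, adjusted p = 0.00999) and lower than Mock by a log2 change of -0.43 ± 0.058 (SE, edgeR, adjusted p = 5.76e-05).

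Snhg12 (chr4:132308678-132311024, + strand), host of Snora16a, Snora44, Snora61 and Snord99, showed 46.0, 43.3 and 43.4 CPM in Mock, 31.6, 38.1 and 33.3 CPM in Auxin, and 30.3, 27.9 and 30.6 CPM in Reintroduction. Its 3 groups did not overlap and stepped down in that order. The log2 change was -0.37 ± 0.073 in Auxin against Mock (SE, edgeR, adjusted p = 0.000846), and the call was lost on total counts (-0.16) and after removal of the trend with gene length (-0.08) or with length and GC content (-0.11). In Reintroduction against Auxin it was -0.21 ± 0.074 (SE, edgeR, adjusted p = 0.0338). The settings that ended this second call included leaving out Auxin replicate 2 (-0.14) or Reintroduction replicate 2 (-0.17), no filter on low counts (-0.20) and the DESeq2 Wald test (-0.20). Reintroduction was below Mock by a log2 change of -0.58 ± 0.074 (SE, edgeR, adjusted p = 3.79e-05).

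Epb41l4aos (chr18:33794892-33795986, + strand) is the shortest member by exon length (430 bp). It was at 23.6, 19.5 and 21.1 CPM in Mock, 14.2, 15.8 and 13.6 CPM in Auxin, and 9.12, 9.18 and 9.03 CPM in Reintroduction. Each group lay below the one before it. The log2 change of Auxin against Mock was -0.56 ± 0.081 (SE, edgeR, adjusted p = 7.15e-05), but it was -0.01 after removal of the length trend and 0.07 after removal of the length and GC trends. The change of Reintroduction against Auxin was -0.68 ± 0.083 (SE, edgeR, adjusted p = 5.29e-05) and that of Reintroduction against Mock -1.23 ± 0.083 (SE, edgeR, adjusted p = 3.15e-07). Both stayed called in the same direction under every alternative listed in the closing section, with ranges of -0.83 to -0.63 and of -1.32 to -0.67.

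Gas5 (chr1:161034422-161038539, + strand), a growth-arrest RNA with 10 annotated snoRNA records, was among the members with the smallest change on Auxin. Its level was 164.0, 169.0 and 168.0 CPM in Mock, 182.0, 171.0 and 193.0 CPM in Auxin and 213.0, 208.0 and 207.0 CPM in Reintroduction. The groups did not overlap, although the lowest Auxin library lay close to Mock. Auxin against Mock gave 0.13 ± 0.053 (log2, SE, edgeR, adjusted p = 0.0504), which was not called. It was called without Auxin replicate 2 (0.16), on total counts (0.34), with a 1 CPM filter (0.20), after halving the counts (0.16) and after removal of the length trend (0.14). Gas5 rose in Reintroduction over Auxin (0.20 ± 0.053, SE, edgeR, adjusted p = 0.00884) and over Mock (0.33 ± 0.053, SE, edgeR, adjusted p = 0.000234). The call against Auxin was lost on total counts (0.12), and both were lost after removal of the length and GC trends, at 0.06 and 0.07.

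Snhg6 and Snhg15 were not called in Auxin against Mock. Snhg6 (chr1:9941959-9944118, - strand), host of the C/D snoRNA Snord87, was at 59.6, 57.4 and 58.7 CPM in Mock, 55.9, 63.4 and 56.6 CPM in Auxin, and 56.7, 54.1 and 56.5 CPM in Reintroduction. Its Auxin libraries spanned the Mock range and overlapped Reintroduction, whereas Mock and Reintroduction did not overlap. The log2 change was 0.00 ± 0.058 (SE, edgeR, adjusted p = 0.979) in Auxin against Mock and -0.07 ± 0.058 in each of the other comparisons (edgeR, adjusted p = 0.329 and 0.300). After removal of the length trend it was called in all 3, at 0.38, -0.16 and 0.22, so a lack of change cannot be read from these values. Mcmdc2, a gene on the other strand that shares 127 exon bases with Snhg6, was at 2.58 ± 0.130 CPM in Mock, 1.18 ± 0.119 in Auxin and 1.03 ± 0.295 in Reintroduction (SD, n = 3). It fell against Mock in Auxin (-1.14 ± 0.182, SE, edgeR, adjusted p = 0.00016) and in Reintroduction (-1.36 ± 0.189, SE, edgeR, adjusted p = 7.14e-05).

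Snhg15 (chr11:6525591-6528760, - strand), host of Snora9, gave 38.9, 35.4 and 34.5 CPM in Mock, 38.6, 42.3 and 37.5 CPM in Auxin, and 24.9, 28.8 and 25.8 CPM in Reintroduction. Mock and Auxin overlapped, and all 3 Reintroduction libraries stood below both. Auxin against Mock gave a log2 difference of 0.12 ± 0.074 (SE, edgeR, adjusted p = 0.164). With the length trend removed this difference was 0.46, and on total counts 0.33, both called. Snhg15 fell in Reintroduction against Auxin (-0.58 ± 0.075, SE, edgeR, adjusted p = 7.88e-05). Against Mock it was lower by a log2 change of -0.46 ± 0.075 (SE, edgeR, adjusted p = 0.000251), a call lost with the length and GC trends removed (-0.07).

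Snhg3 (chr4:132348014-132353686, - strand), host of the H/ACA snoRNAs Snora73a and Snora73b, was not measurable and was left out of the tests. Its counts were 1, 1 and 4 for Mock, 0, 1 and 0 for Auxin, and 3, 0 and 1 for Reintroduction. Of its 986 exon bases, 851 (86.3%) are also exon of another gene, on either strand: 705 of the antisense Gm17300, 159 of Snora73a and 135 of Rcc1. Reads that fell in several genes were left out of the counts by the authors' counting, which leaves only 135 bases that could count for Snhg3. Rcc1, the exchange factor of the Ran GTPase whose start lies 81 bp from that of Snhg3 on the same strand, was at 259.0, 238.0 and 238.0 CPM in Mock, 67.3, 75.8 and 64.2 CPM in Auxin and 118.0, 106.0 and 117.0 CPM in Reintroduction, with log2 changes of -1.83, 0.72 and -1.11 in the 3 comparisons, all called. Gm17300 showed -1.37, 0.68 and -0.69, all called. The misc RNA Gm27494, which shares 189 exon bases with Zfas1, held 0 counts in all libraries.

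Across the 9 tested members, 6 (66.7%) were called in Auxin against Mock, 3 higher and 3 lower, beside 73.2% of all genes tested (38.4% called higher and 34.8% lower), so the share called was near the background. The groups of 7 members did not overlap, beside 74.3% of all genes. In Reintroduction against Auxin 8 (88.9%) were called, 2 higher and 6 lower, beside 50.9% of all genes (25.5% in each direction), and 8 members did not overlap, beside 58.2%. In Reintroduction against Mock 7 (77.8%) were called, 1 higher and 6 lower, beside 68.1% of all genes (34.7% higher and 33.4% lower), and 8 did not overlap, beside 75.2%. The members' median log2 change was 0.12, -0.55 and -0.43 in these comparisons, beside 0.05, 0.00 and 0.03 for all genes. These comparisons share libraries pairwise, and only 9 members were tested.

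**Figure D2:**
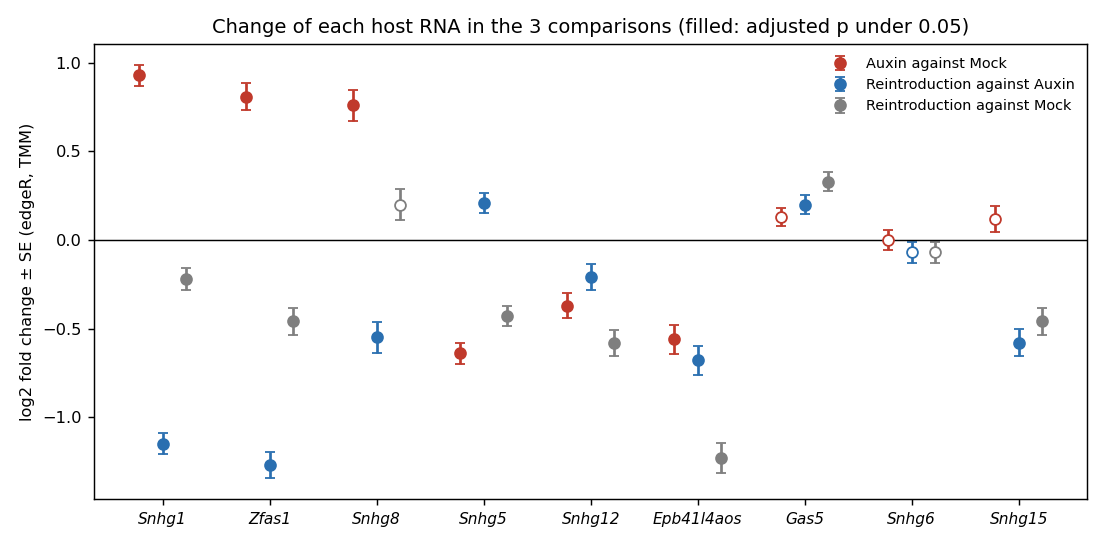
Log2 fold change ± SE (edgeR, all 9 libraries in 1 fit) of the 9 tested host RNAs in Auxin against Mock (red), Reintroduction against Auxin (blue) and Reintroduction against Mock (grey); filled points have an adjusted p under 0.05. Members lie on both sides of 0 in Auxin against Mock (-0.64 to 0.93), and 6 of 9 are called lower in Reintroduction against Auxin, with Zfas1 at -1.27.

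The members therefore differed among themselves in direction. Summed over the 9 RNAs, the level was 668 ± 15.9 CPM in Mock, 764 ± 38.3 in Auxin and 601 ± 10.1 in Reintroduction (SD, n = 3). Ratios of counts within a library do not depend on the scaling of libraries. The ratio of Snhg1 to Snhg5 was 0.482 to 0.508 in Mock, 1.44 to 1.5 in Auxin and 0.576 to 0.577 in Reintroduction. Zfas1 to Snhg5 was 0.531 to 0.549, 1.43 to 1.55 and 0.509 to 0.541, and Snhg8 to Snhg5 was 0.153 to 0.177, 0.41 to 0.448 and 0.245 to 0.254. All 3 ratios were highest in the Auxin libraries. The Gas5 to Snhg5 ratio was 1.02 to 1.12 in Mock, 1.6 to 2.02 in Auxin and 1.81 to 1.84 in Reintroduction, above Mock in both other groups.

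Levels of different members can be set side by side only per length, here as CPM per kb of exon not shared with another gene. Annotated exon takes in intron bases to differing degrees. It covers 100% of the gene body for Snhg1, Zfas1 and Snhg8, 92.0% for Snhg5 and 91.3% for Gas5. For Epb41l4aos it covers 39.3%, for Snhg15 42.9% and for Snhg6 53.1%, so the order may depend on the annotation too. In Mock, Snhg5 was highest (94.5 to 102 CPM per kb), followed by Snhg6 (56.3 to 58.4) and by Gas5 and Epb41l4aos, which overlapped. Zfas1, Snhg8 and Snhg12 overlapped below them. Snhg1 (32.5 to 33.1) lay within the range of Snhg8 (32.2 to 39.6), and Snhg15 (28.2 to 31.8) was lowest. In Auxin, Snhg1 (58.9 to 68.4), Snhg5, Zfas1 (57.2 to 69.2), Gas5, Snhg8 and Snhg6 each overlapped the next in the order, and Snhg12 (24.4 to 29.4) was lowest. In Reintroduction, Snhg5 (70.8 to 74.1) and Gas5 (66.9 to 68.8) led, and Snhg12, Snhg15 and Epb41l4aos overlapped at the bottom. By this measure Snhg1 was in the lower part of the order in Mock, not set apart from Snhg8. In Auxin it was among the 6 overlapping members at the top.

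A trend with gene length ran through the libraries and touched some of these calls. Relative to the mean of all libraries, log2 CPM changed per doubling of exon length by -0.18 to -0.13 in Mock, 0.03 to 0.12 in Auxin and 0.06 in each Reintroduction library. The tested members had a median exon length of 1626 bp, beside 2916 bp for all genes tested, and shorter genes stood relatively higher in Mock. With this trend removed, the calls in Auxin against Mock were 6 higher (Snhg1, Zfas1, Snhg8, Gas5, Snhg6 and Snhg15) and 1 lower (Snhg5). Of all 20838 genes, 8507 were then higher and 6791 lower, with a median log2 change of 0.12. On total counts without scaling factors 6 members were higher and 2 lower, beside 9748 and 5662 of all genes. That scaling moved the median log2 change of all genes from 0.05 to 0.26 and the share of higher among called genes from 52.4% to 63.3%. In Reintroduction against Auxin the share fell from 50.0% to 40.1%. The rise of Snhg1, Zfas1 and Snhg8 and the fall of Snhg5 in Auxin were called under every alternative, with log2 ranges of 0.86 to 1.14, 0.71 to 1.02, 0.69 to 1.21 and -0.70 to -0.37.

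**Figure D3:**
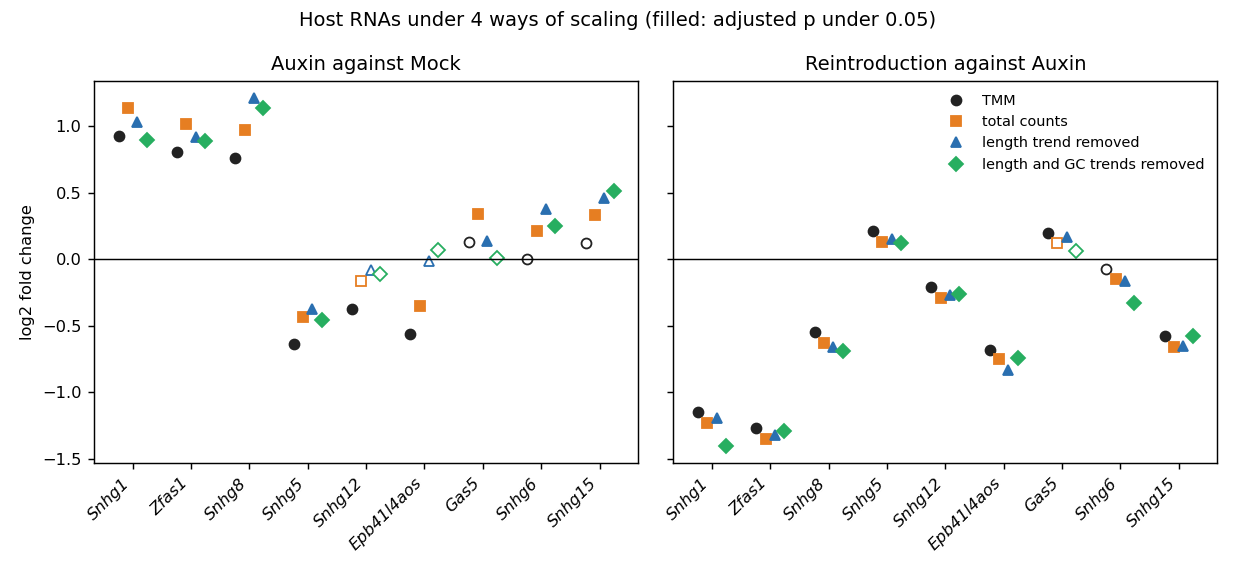
Log2 fold change of the 9 tested host RNAs in Auxin against Mock (left) and Reintroduction against Auxin (right) with TMM scaling, with total counts, and with the trends with gene length or with length and GC content removed; filled points have an adjusted p under 0.05. Epb41l4aos in Auxin against Mock moves from -0.56 to -0.01 and 0.07, while Snhg1 stays between 0.90 and 1.14.

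The snoRNAs themselves could hardly be read from these tables. The annotation (GENCODE M21, mm10) places 34 snoRNA records inside the members, and 28 of them lie wholly within exons of the host, since retained-intron transcripts are annotated as exon: exons cover a median of 91.3% of the gene body of the tested members, beside 25.1% for all genes tested, and 100% for Snhg1, Zfas1 and Snhg8. All 28 held 0 counts in all 9 libraries. As reads in several genes were left out, this count says nothing about the snoRNA level. With introns annotated as exon, spliced host RNA and intron-holding precursor fall under the same gene and cannot be told apart. Bowtie2, named in the processing notes, does not align reads across introns, so the share of spliced RNA in these counts is not known. Examples, taken from the GENCODE M21 transcripts (GRCm38), show which guides these members carry, with capitals for the C box TGATGA and the D box CTGA, or for the ACA near the end.
Gm22680 in Snhg1 (chr19:8725341-8725409, + strand): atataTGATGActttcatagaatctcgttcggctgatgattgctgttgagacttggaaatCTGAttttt
Snord12 in Zfas1 (chr2:167065276-167065365, + strand): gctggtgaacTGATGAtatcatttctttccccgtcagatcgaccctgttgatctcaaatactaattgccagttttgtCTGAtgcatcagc
Snora24 in Snhg8 (chr3:123507937-123508066, - strand): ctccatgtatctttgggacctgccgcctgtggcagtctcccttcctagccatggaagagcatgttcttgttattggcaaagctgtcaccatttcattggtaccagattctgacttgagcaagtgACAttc
Snord50a in Snhg5 (chr9:88521529-88521600, - strand): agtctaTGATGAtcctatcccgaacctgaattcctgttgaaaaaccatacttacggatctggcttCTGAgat
Snord87 in Snhg6 (chr1:9942463-9942549, - strand): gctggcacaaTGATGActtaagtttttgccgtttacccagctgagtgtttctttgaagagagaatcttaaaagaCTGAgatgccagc

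Among the records with a sequence read, 19 held a C box near the beginning and a D box near the end. Another 7 held an ACA near the end, and 7 met neither rule. Some of these last records, such as Gm24453 and Gm25878, hold the letters of both C/D boxes, but not close enough to the ends to be counted. Records with no host exon over them numbered 5, and 3 records had any count. Snord87, in an intron of Snhg6, was at 1.91 ± 0.217 CPM in Mock, 1.69 ± 0.113 in Auxin and 1.94 ± 0.137 in Reintroduction (SD, n = 3) and was called in none of the 3 comparisons, as was its host. Gm23639, inside Epb41l4aos, was at 2.10 ± 0.157, 0.629 ± 0.231 and 0.948 ± 0.137 CPM. Gm23639 fell in Auxin against Mock by a log2 change of -1.73 ± 0.222 (SE, edgeR, adjusted p = 2.7e-05) and was still lower in Reintroduction than in Mock (-1.13 ± 0.214). In Reintroduction against Auxin it changed by 0.60 ± 0.239 (SE, edgeR, adjusted p = 0.0574), not called, whereas its host changed by -0.68. Gm23639 is only 132 bp long, with 48, 67 and 29 counts in Auxin. The fall of its host in Auxin did not hold with the length trend removed, and for Gm23639 that setting was not examined. Polyadenylated RNA was selected, so such counts may stem from precursor RNA, and mature snoRNAs, which carry no poly(A) tail, were not measured.

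Several members start beside another gene. Slc3a2, the heavy chain of amino acid transporters of the cell surface, starts 106 bp from Snhg1 on the other strand. Slc3a2 was at 214.0, 192.0 and 194.0 CPM in Mock, 390.0, 461.0 and 386.0 CPM in Auxin, and 159.0, 145.0 and 159.0 CPM in Reintroduction. Like Snhg1, it was highest in all Auxin libraries and lower in Reintroduction than in any Mock library, with log2 changes of 1.05 ± 0.078, -1.41 ± 0.079 and -0.37 ± 0.078 (SE, edgeR), all called. Znfx1, a helicase gene 81 bp from the Zfas1 start on the other strand with 82 shared exon bases, moved opposite to Zfas1. It was at 22.5, 23.7 and 22.7 CPM in Mock, 18.4, 19.3 and 16.9 CPM in Auxin and 21.9, 20.8 and 23.3 CPM in Reintroduction, lower in Auxin than in Mock (-0.33 ± 0.067, called) and higher in Reintroduction than in Auxin (0.28 ± 0.067, called). Zbtb37, a zinc finger gene 427 bp from Gas5, was at 12.5, 20.2 and 17.8 CPM in Mock, 36.9, 18.7 and 38.7 CPM in Auxin, and 40.1, 48.0 and 43.4 CPM in Reintroduction. Auxin replicate 2 lay within the Mock range, and the log2 changes were 0.90 and 1.38 against Mock, both called, and 0.48 in Reintroduction against Auxin, not called.

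**Figure D4:**
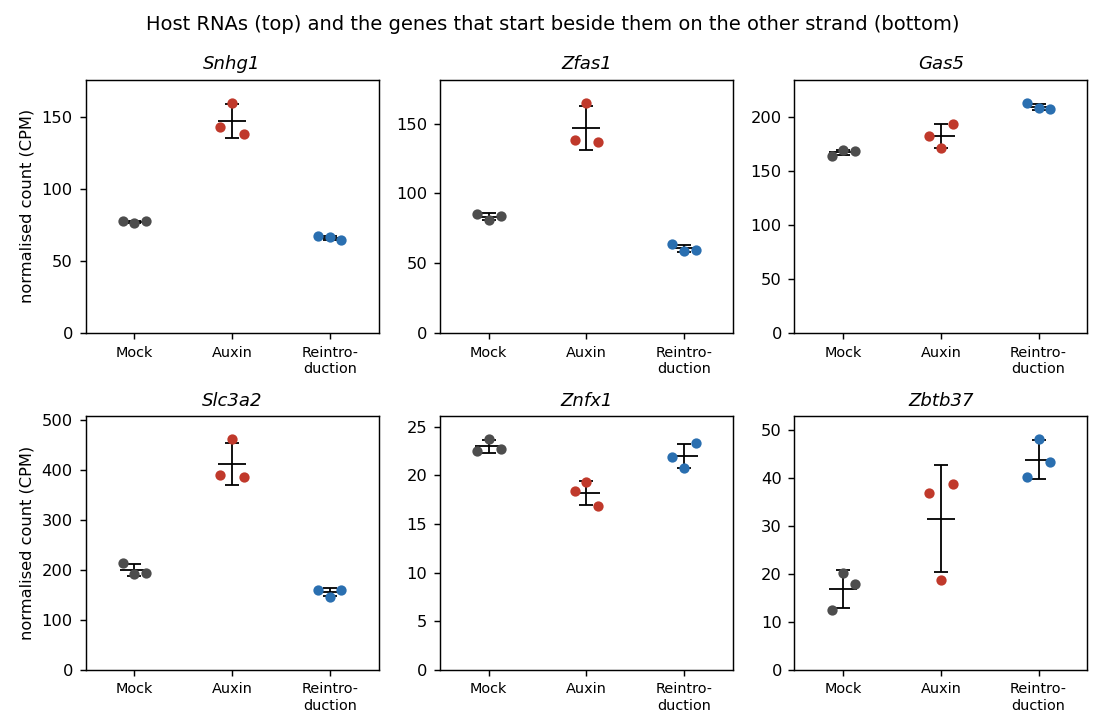
Normalised read count (CPM, linear axes from 0) per library of Snhg1, Zfas1 and Gas5 (top) and of the gene whose start lies beside each on the other strand (bottom), with the mean and SD of 3 libraries. Slc3a2 has its 3 highest libraries in Auxin, as has Snhg1, whereas Znfx1 has its 3 lowest there.

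Further noncoding hosts, listed by name, were mixed too: of 6 tested (11 were listed), 3 were higher and 1 lower in Auxin against Mock, with a median log2 change of 0.28. Called shares of all genes, to set beside this list and those below, were 38.4% higher and 34.8% lower in this comparison. They were 25.5% in each direction in Reintroduction against Auxin, and 34.7% higher and 33.4% lower in Reintroduction against Mock. Snhg17 was at 72.8 ± 1.55 CPM in Mock, 100 ± 2.38 in Auxin and 59.9 ± 1.40 in Reintroduction (SD, n = 3), and the order of its groups was that of Snhg1 and Zfas1. Its log2 changes were 0.46, -0.74 and -0.28, all called. Snhg11 was higher than Mock in Auxin (log2 0.97) and in Reintroduction (log2 1.08). Of the 26 protein-coding hosts, 12 were lower and 4 higher in Auxin, and their median of -0.26 moved to -0.05 on total counts. Without Auxin replicate 2, 19 were lower. Hspa8, a constitutive chaperone with snoRNAs in its introns, was at 1870 ± 36.7 CPM in Mock, 598 ± 67.8 in Auxin and 2530 ± 40.9 in Reintroduction (SD, n = 3), with log2 changes of -1.65 and then 2.08. Eef2, the translocase of elongation, rose by 0.32 in Auxin and then changed by -0.66.

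Most mRNAs for the machinery that uses the snoRNAs were lower in Auxin, and proteins were not measured. Of 16 genes for snoRNP proteins and their assembly, 15 were called lower in Auxin against Mock and 0 higher, with a median log2 change of -0.87. In Reintroduction against Auxin 11 were higher and 1 lower (median 0.33), and against Mock 13 were lower and 1 higher (median -0.63). Nhp2, a core protein of H/ACA particles, was at 197 ± 16.5, 47.0 ± 6.49 and 94.0 ± 3.5 CPM (SD, n = 3), and the box C/D methyltransferase Fbl at means of 51.9, 23.9 and 28.2 CPM. Genes of RNA polymerase I and of ribosome assembly, 15 in number, were all called lower in Auxin (median -0.62), and 10 were higher and 1 lower in Reintroduction against Auxin. On total counts 15 of the snoRNP and 13 of the ribosome genes were called lower in Auxin. Bop1, a factor for the large ribosomal subunit, changed by -1.71 and then 0.90. The members were 3 higher and 3 lower in Auxin with TMM scaling, 6 higher and 2 lower on total counts, and 6 higher and 1 lower with the length trend removed (median 0.38). All genes had a median of 0.12 with that trend removed.

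Factors of nonsense-mediated decay, which degrade host RNAs, were mixed. Of 10 genes, 2 were called higher and 4 lower in Auxin against Mock, with a median of -0.09. Of all genes, 38.4% were higher and 34.8% lower. Once the length trend was removed, 0 of the 10 were higher and 6 lower (median -0.35), beside 8507 and 6791 of all 20838 genes. Smg8, a regulator of the kinase of this pathway, was at 72.0 ± 0.405 CPM in Mock, 39.8 ± 1.98 in Auxin and 49.6 ± 1.55 in Reintroduction (SD, n = 3). The helicase Upf1 changed by -0.40 (log2) in Auxin, and the kinase Smg1 by 0.81. In Reintroduction against Auxin 2 were higher and 2 lower. Of 5 genes of the exon junction complex, which marks spliced RNA for this decay, 3 were lower in Auxin and 0 higher (2 higher on total counts), and Magoh changed by -1.12. Among 11 elongation factor and other TOP mRNAs, 4 were higher and 7 lower in Auxin (median -0.30), and 4 lower on total counts. Any part of these genes in the levels of the host RNAs was not tested.

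**Figure D5:**
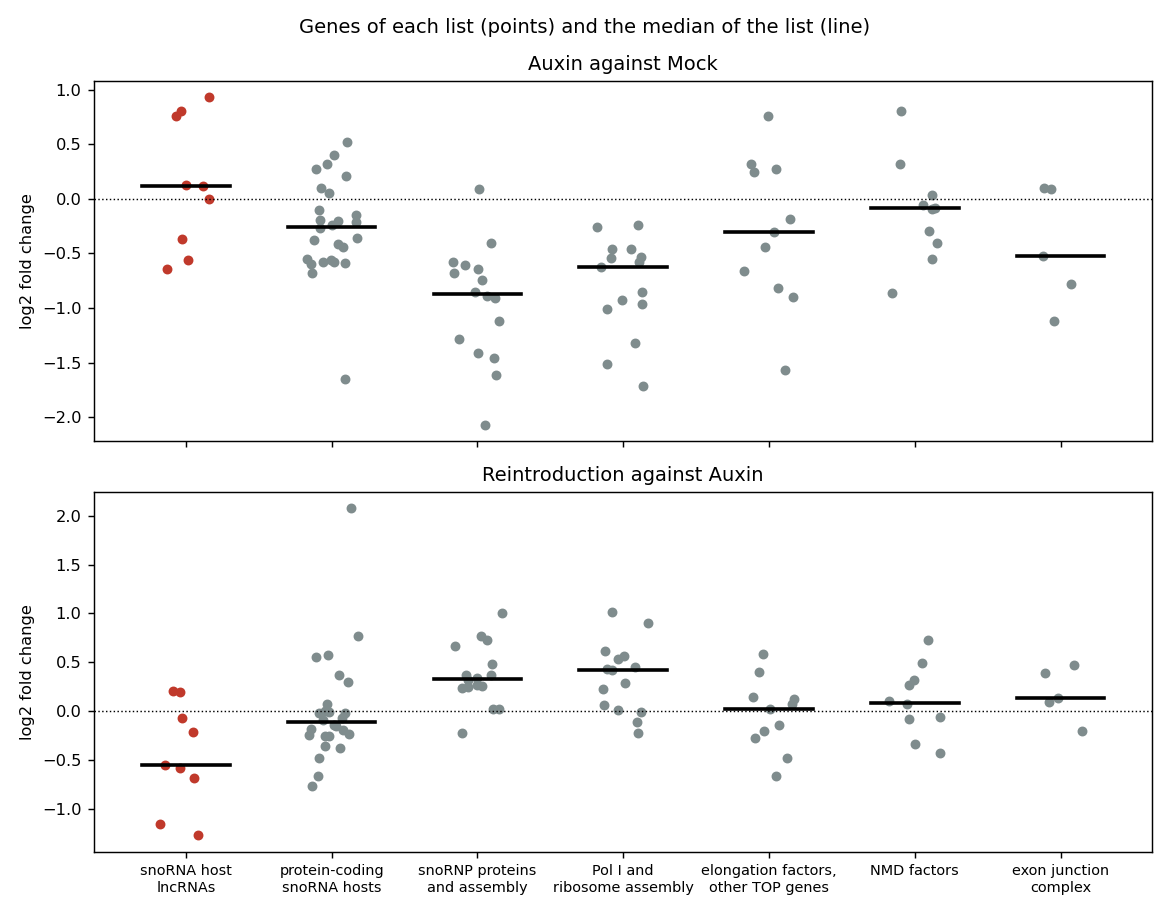
Log2 fold change of each tested gene (points) in the host RNAs and in 6 other named lists in Auxin against Mock (top) and Reintroduction against Auxin (bottom), with the median of each list as a line. The snoRNP genes have a median of -0.87 in the top panel, while the host RNAs have 0.12 there and -0.55 in the bottom panel; 4 genes belong to more than 1 list.

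By likeness of pattern over the 9 libraries (root mean square difference of centred log2 CPM from the mean of the members, among 10361 genes of at least 10 CPM), the nearest other genes were Usp30 (0.0230), Gm5424 (0.0261), Rpn2 (0.0277), Tsen15 (0.0315) and Ccnk (0.0330). These genes were picked as the smallest distances, so members being farther away says little. Single members lay from 0.0854 (Snhg15) to 0.374 (Epb41l4aos) from their own mean, so the mean stands closer to some members than to others.

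The libraries held from 44341283 to 113931419 counts, with both mates of a pair counted. All 10 markers of embryonic stem cells were at 1 CPM or more in every group, with summed levels of 6190 to 6370 CPM in Mock, 7620 to 8180 in Auxin and 5960 to 6020 in Reintroduction. In Auxin against Mock 7 of them were called higher, Sox2 with a log2 change of 1.00, and 3 lower: Pou5f1 (-0.53), Dppa5a (-1.16) and Utf1 (-1.03). The 8 fibroblast markers summed to 18.6 to 20.7 CPM in Mock, 40.4 to 47.5 in Auxin and 38.1 to 39.4 in Reintroduction, nearly all of it Thy1, with Fap at 0 throughout and Col3a1, Dcn and Lum at 0 in Auxin. The 6 neural markers summed to 118 to 127, 94.9 to 107 and 89.1 to 92.3 CPM, and the 8 of mesoderm and endoderm to 48.6 to 50.9, 34.5 to 37.3 and 71.8 to 74.7 CPM. Eomes made up most of the latter sum. Of the 7 tested mesoderm and endoderm markers, 4 were called higher in Auxin than in Mock, namely Foxa2 (log2 2.14), Sox17 (2.38), Gata4 (2.05) and Gata6 (1.32), and T (-5.23), Mixl1 (-2.52) and Eomes (-0.46) lower. Apart from Eomes, each was below 10 CPM on average in every group. Several of these markers were chosen for naming after their values were seen. Their part in the results was not tested. Suz12 mRNA was at 125.0, 136.0 and 138.0 CPM in Mock, at 150.0, 122.0 and 152.0 CPM in Auxin, and at 166.0, 173.0 and 164.0 CPM in Reintroduction. The degron acts on the protein, so this level does not check the labels.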

How the data were processed

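The deposited values are raw counts per gene for 9 libraries of polyadenylated RNA (paired reads of 75 bp), made with featureCounts 2.0.6 over exons in mm10, per the file headers. No strand setting was used, and reads in several genes were left out by default. Each mate was counted, and even low counts outnumbered odd ones in 9 of 9 libraries. Trim Galore 0.6.10, FastQC 0.12.1, Bowtie2 2.5.3 and SAMtools 1.20 are named in the submitters' processing notes, without their roles. Bowtie2 does not align reads across introns, and how many spliced reads were lost was not tested.

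Genes passing filterByExpr (20838) were fitted together by quasi-likelihood, with no term besides group (edgeR 4.0.16, limma 3.58.1, R 4.3.3), with TMM factors of 0.904 to 1.08. The common biological coefficient of variation was 9.15%. Tests were two-sided and adjusted by Benjamini-Hochberg over all genes. On simulated counts the fit recovered 76.5%, 66% and 72% of 200 genes changed 2-fold, with false calls making up 7.8%, 3.6% and 6.5% of calls, in Auxin against Mock, Reintroduction against Auxin and Reintroduction against Mock (20446, 20453 and 20438 genes). These simulations held no length trend and few changed genes, whereas 73.2%, 50.9% and 68.1% of genes were called here. The simulated shares therefore need not hold for the real data. Symbols named 48058 genes.

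The members and gene lists were chosen with earlier results of these data known. Named were all members, up to 3 called genes with the smallest p per list, other genes of the lists chosen after their values were seen (Fbl, Smg1), genes overlapping or starting within 1000 bp of a member on the other strand, snoRNAs within a member, and the 5 likest genes, computed with a pseudocount of 0.5 CPM. The SE came from the F statistic. Alternatives were other scaling, filters and tests, halved counts, removal of length and GC trends, a replicate block (DESeq2 1.42.0 for the Wald test) and leaving out each library.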

Additional observations from a re-analysis of the deposited data

How the results depend on the processing

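Of 459 values of a member in a comparison under an alternative, 406 kept their direction and call, 26 gained a call, 16 lost one and 11 changed sign. Of 21 calls, 14 were made in the same direction under every alternative. In Auxin against Mock, members called higher (3) numbered 6 on total counts and with the length trend removed, and 5 with a 1 CPM filter, with length and GC trends removed, and with the replicate block and the length trend removed. Members called lower (3) numbered 1 under the 3 trend removals. Over all genes, calls higher (7996) numbered 9748 on total counts and 8507 with the length trend removed. Calls lower over all genes (7261) numbered 6654 to 6930 under the 3 trend removals. In Reintroduction against Auxin, members called higher (2) numbered 1 on total counts and with length and GC trends removed. In Reintroduction against Mock, members called higher (1) numbered 2 on total counts, with a 1 CPM filter and in a fit of only those groups, and 3 with the length trend removed, with or without the replicate block. Leaving out single libraries gave 1 to 2 there, with 2 without Mock replicate 1, in which Snhg8 was added.

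Sign changes were those of Snhg6 and Epb41l4aos. Snhg6 in Auxin against Mock (0.00) was -0.03 with DESeq2 size factors or the DESeq2 Wald test, -0.0027 without a filter, -0.00032, -0.03 and -0.01 without Mock replicates 1, 2 and 3, and -0.06 without Auxin replicate 2, against 0.03 without either other Auxin library. Snhg6 in Reintroduction against Mock (-0.07) was 0.06 on total counts and 0.22 with the length trend removed, with or without the replicate block. Epb41l4aos in Auxin against Mock (-0.56) was 0.07 with length and GC trends removed. The cause was not tested.

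The labels do not say whether replicate numbers pair the libraries. Correlations of deviations in 9 same-numbered pairs ran from -0.42 to 0.28, and 2 were over 0.1. With 3 libraries per group, such correlations cannot exclude a pairing. With the replicate block, 14808, 9829 and 13639 genes were called in Auxin against Mock, Reintroduction against Auxin and Reintroduction against Mock, beside 15257, 10613 and 14191, and Snhg12 in Reintroduction against Auxin was -0.21 (edgeR, adjusted p = 0.0694). Counts are of mates, so fewer independent fragments stand behind them. Near-identical snoRNAs and exons shared between genes limit Snhg3 and the snoRNAs in particular.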
